A study of Homo sapiens with 15 samples.

Results

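Intermediate filament genes were taken by symbol as the keratins together with VIM, DES, GFAP, PRPH, INA, NEFL, NEFM, NEFH, NES, SYNM, LMNA, LMNB1 and LMNB2. The rule found 68 of the 60651 genes of a count table, 55 of them keratins, and 36 of the 23792 genes of a second table, 23 of them keratins. RNA sequencing of 15 libraries, all labelled as MDA-MB231, an established human line from a triple-negative breast cancer, addressed the role of the mitotic kinesin KIF20A. In the depletion dataset the groups were SG1 and SG3, both given the genotype KIF20A knockdown, and CTRL, given as wild type, with 3 libraries each. In the overexpression dataset the groups were KIF20A_OE, given as overexpressing KIF20A, and EV, given as wild type, again with 3 libraries each. All libraries were of total RNA from cells kept in DMEM with serum. The sources used here do not say what SG1, SG3, CTRL and EV stand for, or whether a group is a clone or a pool. They also do not tell whether the libraries of a group were grown separately. The p-values below cover the scatter among libraries alone, and that scatter may be technical.

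Intermediate filaments are the rope-like part of the cytoskeleton, built from coiled-coil proteins that pair and bundle into flexible cables. Keratins are obligate heteropolymers of a type I and a type II chain and are typical of epithelia, while vimentin, a type III protein, forms filaments alone and marks mesenchymal cells and carcinoma cells that have taken on mesenchymal traits. Neurofilament chains and alpha-internexin (INA) belong to neurons, nestin (NES) and synemin (SYNM) join filaments that other chains build, and the lamins form the mesh under the inner nuclear membrane. MDA-MB231 is known as a line that holds vimentin and simple epithelial keratins at the same time.

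Promoter sequences are shown for 3 members that differed in direction between KIF20A_OE and EV: INA, which was higher, and VIM and NES, which were lower. They are the 250 bases before the RefSeq gene start on GRCh38.p14, read along the gene, and capitals mark every GC box (GGGCGG, or CCGCCC on the other strand). The starts lie within 25 bases of a principal transcript start in GENCODE 29.
INA, chr10:103276888-103277137, plus strand: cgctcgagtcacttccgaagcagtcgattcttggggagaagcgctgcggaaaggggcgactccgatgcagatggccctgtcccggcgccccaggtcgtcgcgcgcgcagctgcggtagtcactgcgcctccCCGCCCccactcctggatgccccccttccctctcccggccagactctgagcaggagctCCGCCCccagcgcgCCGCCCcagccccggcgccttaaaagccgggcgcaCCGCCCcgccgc
VIM, chr10:17227991-17228240, plus strand: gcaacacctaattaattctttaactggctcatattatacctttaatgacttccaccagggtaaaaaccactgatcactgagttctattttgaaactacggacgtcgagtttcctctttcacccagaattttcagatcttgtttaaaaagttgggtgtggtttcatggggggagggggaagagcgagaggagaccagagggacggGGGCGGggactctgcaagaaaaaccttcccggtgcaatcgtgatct
NES, chr1:156677408-156677657, minus strand: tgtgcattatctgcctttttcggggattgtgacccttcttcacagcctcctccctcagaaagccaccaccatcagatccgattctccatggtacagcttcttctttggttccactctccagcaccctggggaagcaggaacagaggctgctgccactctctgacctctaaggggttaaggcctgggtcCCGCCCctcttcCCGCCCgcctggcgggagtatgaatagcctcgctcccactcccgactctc
The INA stretch holds 4 GC boxes and 72.8% G or C, the NES stretch 2 boxes and 58% G or C, and the VIM stretch 1 box and 46% G or C. No TATA box (TATAAA or TTTATA) is present in any of these windows. Of 35116 promoters of this length, 42.6% held a GC box and 10.7% a TATA box, so neither feature sets these genes apart. A match is a description of letters and not a site of binding.

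Depletion libraries held 40.9 to 51 M counts, with M for 1000000, and overexpression libraries 16 to 22.2 M fragments. A gene with no reads could be present at up to 0.0588 to 0.0734 counts per M (CPM) in a depletion library, and at up to 0.135 to 0.188 fragments per M (FPM) in an overexpression library, by a limit of 3 reads. KIF20A averaged 121 ± 27.9 CPM in SG1, 75.4 ± 13.1 CPM in SG3 and 162 ± 8.76 CPM in CTRL (SD, n = 3 each). Both depleted groups lay below CTRL in every library, but edgeR's quasi-likelihood test with Benjamini-Hochberg adjustment called KIF20A in neither, with log2 fold changes of -0.42 (adjusted p = 0.913) and -1.10 (adjusted p = 0.33). The unadjusted p of that test was 0.0301 for SG1 and 1.97e-05 for SG3. Of 16 alternative settings, listed below, 2 called KIF20A lower in SG3 than in CTRL and 0 called it in SG1. In the overexpression dataset KIF20A stood at 1348, 269 and 896 FPM in KIF20A_OE and at 101, 143 and 124 FPM in EV.

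The libraries labelled KIF20A_OE went against the cell line label at several genes. CDKN2A and its neighbour MTAP, which MDA-MB231 is known to have lost, stood at 276, 336 and 354 FPM (CDKN2A) and at 22.7, 24.6 and 22.7 FPM (MTAP) in KIF20A_OE. Both were listed at 0 in every EV and depletion library; they were chosen after their values were seen. AXL, a receptor kinase abundant in this line, was at 0.751, 0.812 and 0.75 FPM in KIF20A_OE against 967, 1107 and 811 FPM in EV. Summed epithelial markers came to 6.89 to 10.6 FPM in KIF20A_OE and 176 to 224 FPM in EV, with CDH1 higher and CLDN4, CLDN7 and EPCAM lower in KIF20A_OE among 4 of 8 markers tested. Mesenchymal markers summed to 233 to 328 FPM in KIF20A_OE and 2506 to 3156 FPM in EV, with CDH2, SNAI2, SPARC and TWIST1 higher and AXL, FN1 and ZEB1 lower. Luminal breast markers summed to 26.6 to 39 FPM in KIF20A_OE and 68.1 to 113 FPM in EV. FOXA1 was called higher and SPDEF lower. Basal or myoepithelial markers summed to 54 to 71.3 FPM in KIF20A_OE and 110 to 172 FPM in EV. ACTA2 was called higher and LAMA3 lower. Fibroblast markers summed to 76 to 84.8 FPM in KIF20A_OE and 25.1 to 64.6 FPM in EV. COL1A1 was called higher and PDGFRB lower. Neuronal markers summed to 9.21 to 26.1 FPM in KIF20A_OE and 0.619 to 1.16 FPM in EV; SYP made up most of this sum, ELAVL3 and STMN2 reached 0.25 and 0.27 FPM at most, and RBFOX3 had 0.751, 1.67 and 0.696 FPM in KIF20A_OE and was listed at 0 in every EV library. Muscle markers summed to 2.41 to 3.57 FPM in KIF20A_OE and 0.118 to 0.387 FPM in EV. MYOD1 had 2, 1.85 and 1.18 FPM in KIF20A_OE and was listed at 0 in every EV library. Leukocyte markers summed to 0 in every KIF20A_OE library and to 0.667 FPM at most in EV. Of the markers named as higher or lower, CDH1, CDH2 and FOXA1 passed the filter for testing, a mean of at least 1 FPM, through KIF20A_OE alone. AXL, SPDEF and PDGFRB passed it through EV alone, so these calls were fixed in direction and are not a result. By the limma test described below, 46.2% of all tested genes were called higher and 23.4% lower. These libraries are called by their label only, and a difference between cell sources and an effect of KIF20A cannot be told apart in any value of KIF20A_OE against EV. In bulk RNA, fewer cells of a type and less RNA per cell cannot be told apart either.

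Most of the family was at or near 0 in the depletion dataset. Of the 68 members, 29 had no count in any of the 9 depletion libraries, 27 of them keratins, and 17 more had 1 to 20 counts over all 9. Only 12 members, 7 of them keratins, averaged 10 CPM or more. Per kilobase of principal transcript, the order over the 9 depletion libraries was KRT8 at 320, VIM at 308, LMNA at 298, KRT7 at 267, KRT19 at 239, KRT18 at 165, LMNB2 at 124, KRT80 at 96.6 and LMNB1 at 78.3 CPM per kilobase. KRT8, VIM and LMNA were neighbours within their spread over libraries. This order depends on the length used: per kilobase of all exons joined KRT19 led at 142, followed by LMNA at 136, VIM at 127, KRT7 at 114.5, LMNB2 at 106 and KRT8 at 99 CPM per kilobase. A wide gap separated these 9 genes from KRT10 at 11.3, KRT81 at 6.51, SYNM at 3.71 and NES at 1.49 CPM per kilobase. The filter for testing kept 18 members in the depletion dataset; the 50 others had at most 55 counts over the 9 libraries. Of the members in the overexpression dataset 24 were tested, 12 were listed but too low to test, and 32 were not analysed there.

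In the overexpression dataset the family took 0.255, 0.196 and 0.241% of fragments in KIF20A_OE and 0.682, 0.672 and 0.646% in EV. The groups did not overlap, and the exact two-sided permutation test over libraries gave p = 0.1, the smallest that 3 against 3 allows. Keratins took 0.0481 ± 0.00678% in KIF20A_OE and 0.23 ± 0.0173% in EV (SD, n = 3 each, exact p = 0.1). Vimentin alone took 0.0555 ± 0.0214% in KIF20A_OE and 0.265 ± 0.0117% in EV, and the lamins took 0.112 ± 0.00517% in KIF20A_OE and 0.158 ± 0.0123% in EV (SD, n = 3 each, exact p = 0.1 for both). In the depletion dataset the family took 0.443, 0.437 and 0.38% of counts in SG1, 0.364, 0.544 and 0.502% in SG3 and 0.485, 0.547 and 0.442% in CTRL, with exact p = 0.2 for SG1 against CTRL and 0.8 for SG3 against CTRL. The plot of family shares by library shows both datasets.

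**Figure D1:**
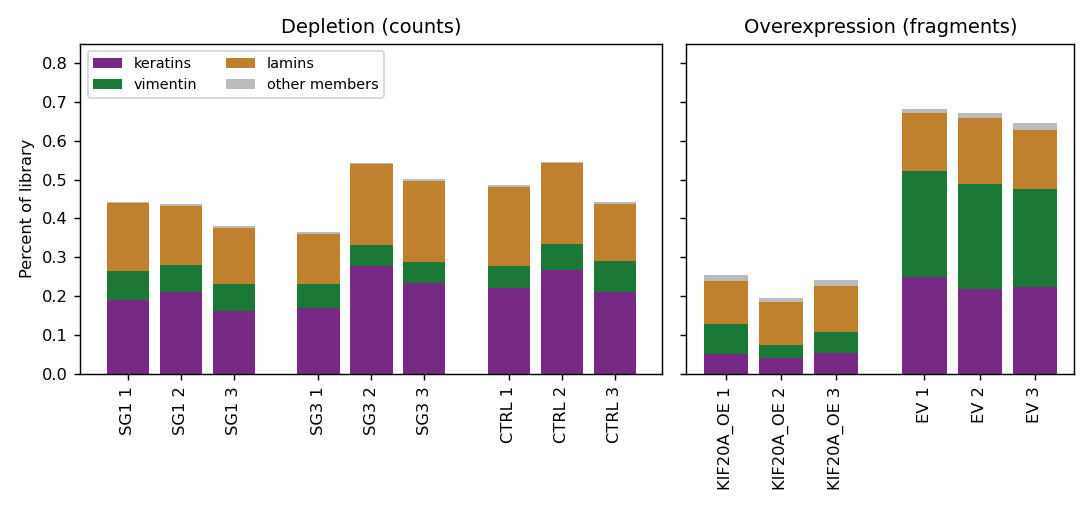
Share of each library taken by keratins, vimentin, lamins and the other members, in percent of counts (depletion) or fragments (overexpression); each bar is 1 library and parts are stacked. The KIF20A_OE bars reach 0.255% at most, whereas the EV bars start at 0.646%; the SG1, SG3 and CTRL bars overlap in height.

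Tests of KIF20A_OE against EV used limma on log2(FPM + 1) over 15265 genes with Benjamini-Hochberg adjustment and a threshold of 0.05, and log2 fold changes below are on that scale, which understates the change of low genes. Of the 24 tested members 9 were higher and 14 lower, while 46.2% of all tested genes were called higher and 23.4% lower. Among the higher, NEFL, NEFM, INA, KRT38, KRT75 and KRT222 passed the filter for testing through KIF20A_OE alone, with EV means under 1 FPM. Among the lower, KRT7, KRT14, KRT15, KRT19, KRT80, KRT81, KRT86 and GFAP passed it through EV alone, with KIF20A_OE means under 1 FPM. These counts were therefore partly fixed by the filter and are not a result. The median member had a log2 fold change of -1.33, also with the 7 genes listed at 0 in a whole group, which passed the filter through the other group alone, set at their bound, and the median of all genes was 0.37. Scaling by TMM moved the median of all genes to 0.05; 6 members were then called higher and 15 lower, against 34.4% and 32.2% of all genes. Without any single library the counts ran from 6 to 8 higher and 13 to 14 lower. Groups did not overlap for 8 higher and 14 lower members, as for 48.9% and 25.2% of all genes. Where a gene had few fragments, the fold is the ratio of pooled FPM with an exact 95% interval, which covers counting error only.

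**Figure D2:**
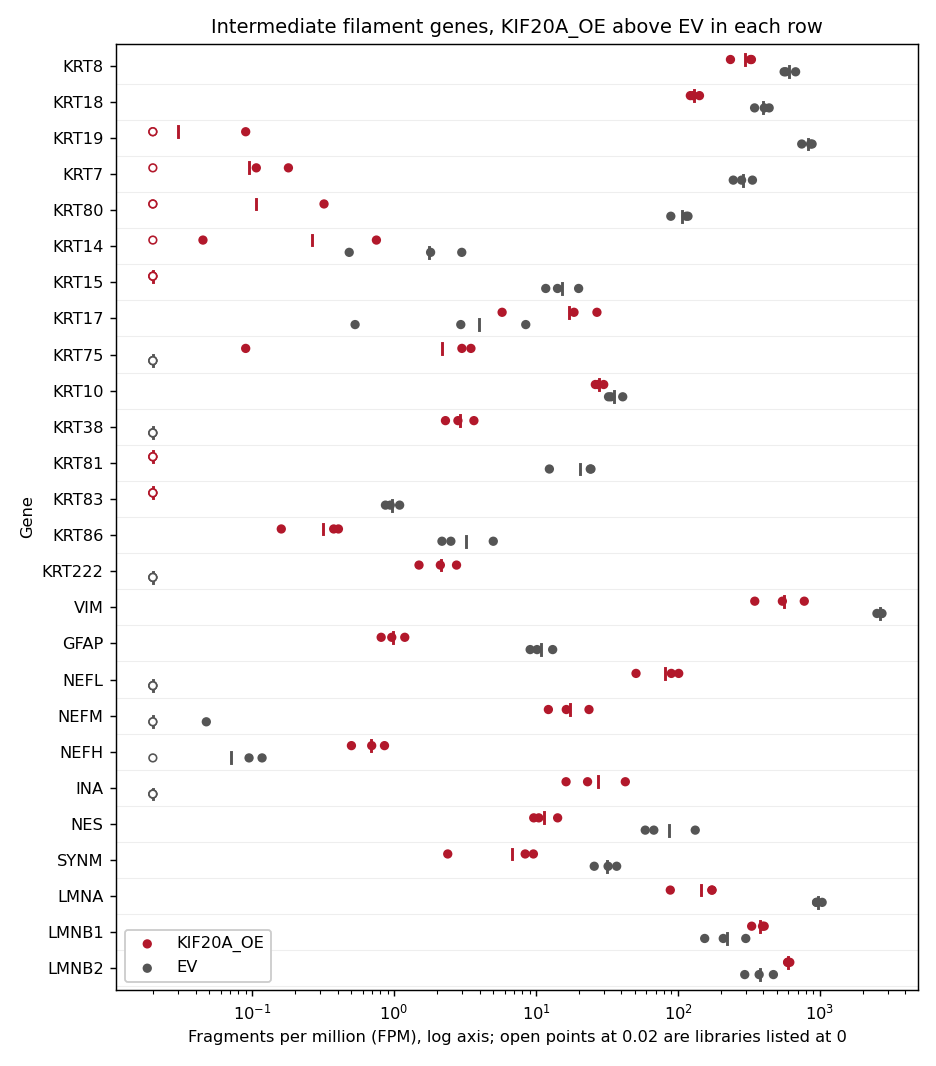
FPM of 26 intermediate filament genes in each library (points; KIF20A_OE red and above, EV grey and below), with short bars at the group means, on a log axis; open points mark libraries listed at 0. KRT19, KRT7, KRT80, KRT15 and KRT81 sit near or at 0 in KIF20A_OE, NEFL, NEFM and INA sit near or at 0 in EV, and LMNA and the B-type lamins lie on opposite sides.

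The 5 tested simple epithelial keratins, the chains of single-layered epithelia, were lower in KIF20A_OE by very different amounts. KRT19, a type I chain (chr17:41523617-41528308, minus strand), had 0, 0.0902 and 0 FPM in KIF20A_OE and 859, 744 and 880 FPM in EV. This is 2 fragments against 48399, a level 23430-fold lower (interval 6485 to 193500), with a log2 fold change of -9.65 ± 0.14 (SE, adjusted p = 4.91e-09). KRT7, a type II chain (chr12:52232520-52252186, plus strand), had 0, 0.18 and 0.107 FPM in KIF20A_OE and 334, 280 and 245 FPM in EV, a level 2743-fold lower (interval 1260 to 7476; adjusted p = 2.27e-08). KRT80, a type II chain of several epithelia, had 0, 0 and 0.321 FPM in KIF20A_OE and 114, 118 and 89 FPM in EV, 1025-fold lower (interval 471 to 2794; adjusted p = 7.15e-08). These KIF20A_OE levels rest on 2 fragments for KRT19, 6 for KRT7 and 6 for KRT80 over the 3 libraries. KRT19, KRT7 and KRT80 passed the filter for testing through EV alone.

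KRT8 and KRT18, the pair that all simple epithelia assemble first, remained abundant in both groups. KRT8 (chr12:52897187-52949954, minus strand) had 329, 234 and 325 FPM in KIF20A_OE and 674, 559 and 574 FPM in EV, with a log2 fold change of -1.03 ± 0.16 (SE, adjusted p = 0.000465). KRT18 (chr12:52948871-52952901, plus strand) had 122, 128 and 142 FPM in KIF20A_OE and 439, 405 and 346 FPM in EV, with a log2 fold change of -1.59 ± 0.13 (SE, adjusted p = 1.08e-05). Neither pair of groups overlapped. KRT8 stood 1.98, 1.34 and 1.68 times as high as KRT18 per transcript length in KIF20A_OE and 1.13, 1.01 and 1.22 times in EV (exact p = 0.1). With the lengths of all exons joined the mean ratio was 1.06 in KIF20A_OE and 0.713 in EV, so the ordering of the groups held while the level of the ratio depended on the length used. Summed over the family, type II over type I chains per length gave 1.41, 1.08 and 1.3 in KIF20A_OE and 0.601, 0.566 and 0.505 in EV (exact p = 0.1). With all exons joined this ratio averaged 0.708 in KIF20A_OE and 0.39 in EV, below 1 in both groups. KRT19 was the most abundant type I chain in EV per length.

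Basal and stress keratins, the chains of the proliferating layer and of wounded or activated skin, split. KRT15, a type I chain of basal cells, was listed at 0 in every KIF20A_OE library and at 11.7, 20 and 14.2 FPM in EV, at least 290-fold lower by the limit of 3 fragments over the pooled group (adjusted p = 1.34e-06). KRT17, a stress-inducible type I chain, had 26.9, 5.77 and 18.5 FPM in KIF20A_OE and 2.95, 0.532 and 8.47 FPM in EV. These groups overlapped, the call was weak (log2 fold change 2.0 ± 0.74, SE, adjusted p = 0.0427), and it held under 4 of 11 alternatives, with adjusted p up to 0.123. KRT14, the basal partner of KRT5, had 0.751, 0.0451 and 0 FPM in KIF20A_OE and 1.81, 0.483 and 3 FPM in EV; its call (adjusted p = 0.0334) ended without KIF20A_OE replicate 2 or 3, at 0.106 and 0.109. KRT75, a chain of the hair follicle, had 3, 0.0902 and 3.48 FPM in KIF20A_OE and 0 in every EV library, and its call (adjusted p = 0.0297) ended when any EV library was left out, at 0.0579 to 0.0717. KRT14 and KRT15 passed the filter for testing through EV alone and KRT75 through KIF20A_OE alone, so these genes had to differ in mean.

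Hair keratins are type I and type II chains of hair cortex and cuticle, and a few are known to appear outside hair in carcinoma cells. KRT81 (chr12:52285913-52291534, minus strand) was listed at 0 in all KIF20A_OE libraries and at 24.4, 12.4 and 24.1 FPM in EV, at least 380-fold lower (adjusted p = 2.43e-06). KRT86 had 0.376, 0.406 and 0.161 FPM in KIF20A_OE and 5, 2.51 and 2.17 FPM in EV (log2 fold change -1.63 ± 0.26, SE, adjusted p = 0.000649). KRT83, too low to test, was listed at 0 in KIF20A_OE and at 1.09, 0.87 and 0.941 FPM in EV, at least 18.4-fold lower. KRT38, a type I hair chain, moved the other way, with 2.82, 3.65 and 2.3 FPM in KIF20A_OE and 0 in EV, at least 58.2-fold higher (adjusted p = 3.49e-05). KRT222 likewise had 2.75, 2.12 and 1.5 FPM in KIF20A_OE and 0 in EV, at least 41-fold higher (adjusted p = 0.000138). KRT38 and KRT222 passed the filter for testing through KIF20A_OE alone, and KRT81 and KRT86 through EV alone. They therefore had to differ, and their count is not a result.

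KRT81 and KRT86 are neighbours that share sequence, so reads can be split between them. Of the 50-base windows of the KRT81 transcript, 44.6% also occur in another gene. KRT86 holds 38.3% of the windows, some of which may occur in further genes too. For comparison the share was 32.7% for KRT8 and 31.8% for KRT18. The genes holding most of these windows were pseudogenes, KRT8P3 for KRT8 and KRT18P11 for KRT18, and KRT8 also shared windows with KRT80. For the others the share was 23.8% for KRT14, 16% for KRT17, 57.8% for KRT222, through 1 other gene, and 0% for VIM, INA, NES, NEFL and the 3 lamins.

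KRT10, a type I chain of differentiating epidermis, was the only tested member that was not called between the groups. It had 26.2, 27.3 and 30 FPM in KIF20A_OE and 32.4, 33.7 and 40.8 FPM in EV (log2 fold change -0.34 ± 0.15, SE, adjusted p = 0.0661). Under TMM scaling it was called lower, at -0.69 with adjusted p = 0.00278.

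Vimentin was the most abundant member per kilobase of principal transcript in both groups, at 260.2 FPM per kilobase in KIF20A_OE and 1243 FPM per kilobase in EV. Per kilobase of all exons joined, VIM had 108 FPM in KIF20A_OE, just under LMNB2 at 110.5 FPM, and 514 FPM in EV, still the highest of the named members. VIM (chr10:17228259-17237593, plus strand) had 776, 347 and 544 FPM in KIF20A_OE and 2735, 2705 and 2520 FPM in EV, a log2 fold change of -2.33 ± 0.25 (SE, adjusted p = 6.79e-05) and a level 5-fold lower. Every KIF20A_OE library lay far below every EV library. KIF20A_OE replicate 2, which had the least KIF20A of its group, had the least VIM and also the least KRT8, LMNA and SYNM. NES, INA and LMNB1 were highest in that library, and a link with the level of KIF20A was not tested. Per transcript length VIM stood 1.83 ± 0.458 times as high as KRT8 in KIF20A_OE and 4.41 ± 0.388 times in EV (SD, n = 3 each, exact p = 0.1). GFAP, the type III protein of astrocytes, had 1.19, 0.812 and 0.964 FPM in KIF20A_OE and 9.09, 13.1 and 10.2 FPM in EV (adjusted p = 1.02e-05). GFAP passed the filter for testing through EV alone and so had to differ in mean. DES of muscle and PRPH of peripheral neurons were too low to test.

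Neurofilament genes made the opposite pattern. NEFL, the light chain and core of the neurofilament (chr8:24950955-24957110, minus strand), had 101, 50.6 and 89.8 FPM in KIF20A_OE and 0 in every EV library, at least 1521-fold higher, with a log2 fold change of 6.29 ± 0.27 (SE, adjusted p = 2.84e-07). NEFM, the medium chain, had 16.3, 12.2 and 23.6 FPM in KIF20A_OE and a single fragment among the EV libraries, a ratio of 1005 (interval 180 to 39740; adjusted p = 2e-06). INA (chr10:103277163-103290351, plus strand), which co-assembles with the neurofilament triplet, had 16.3, 42.6 and 23.1 FPM in KIF20A_OE and 0 in EV, at least 563-fold higher (adjusted p = 3.95e-06). NEFH, the heavy chain, was too low to test, with 0.501, 0.857 and 0.696 FPM in KIF20A_OE and 0.0952, 0 and 0.118 FPM in EV, a ratio of 10.3 (interval 3.73 to 39.8). NEFL, INA and NEFM passed the filter on low values through KIF20A_OE alone and so had to differ, and their count is not a result. NEFL was lowest and INA highest in KIF20A_OE replicate 2. In the 9 depletion libraries NEFL had 2 counts, INA 1 and NEFM 0 in all.

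Nestin and synemin, large chains that need a partner filament such as vimentin, were both lower in KIF20A_OE. NES had 10.5, 14.2 and 9.64 FPM in KIF20A_OE and 58.8, 67.6 and 132 FPM in EV (adjusted p = 6.37e-05), 7.14-fold lower. SYNM had 8.39, 2.39 and 9.58 FPM in KIF20A_OE and 25.7, 32.2 and 37 FPM in EV (adjusted p = 0.00137), 4.85-fold lower. Nestin is often used as a marker of neural progenitors, and it was lower in the libraries in which the neurofilament genes were higher.

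The lamins diverged by type. LMNA (chr1:156082573-156140089, plus strand), which encodes lamins A and C of differentiated and stiff nuclei, had 174, 88.3 and 173 FPM in KIF20A_OE and 1036, 947 and 947 FPM in EV, 6.98-fold lower (log2 fold change -2.81 ± 0.25, SE, adjusted p = 1.86e-05). LMNB1 had 330, 405 and 394 FPM in KIF20A_OE and 154, 300.2 and 208 FPM in EV (log2 fold change 0.81 ± 0.22, SE, adjusted p = 0.011). LMNB2 had 595, 592 and 613 FPM in KIF20A_OE and 295, 469.9 and 373 FPM in EV (log2 fold change 0.69 ± 0.17, SE, adjusted p = 0.00571). Both B-type calls ended under TMM scaling and with edgeR on recovered fragments. Under TMM scaling they stood at log2 fold changes of 0.46 (adjusted p = 0.1) for LMNB1 and 0.33 (adjusted p = 0.104) for LMNB2. LMNA over the sum of LMNB1 and LMNB2 per length is free of that scaling: it was 0.225, 0.104 and 0.203 in KIF20A_OE and 2.78, 1.45 and 1.95 in EV (exact p = 0.1). The level of this ratio depends on the length used: with all exons joined it was 0.124, 0.0573 and 0.112 in KIF20A_OE and 1.53, 0.801 and 1.08 in EV, with the groups in the same order but 1 EV library below 1.

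**Figure D3:**
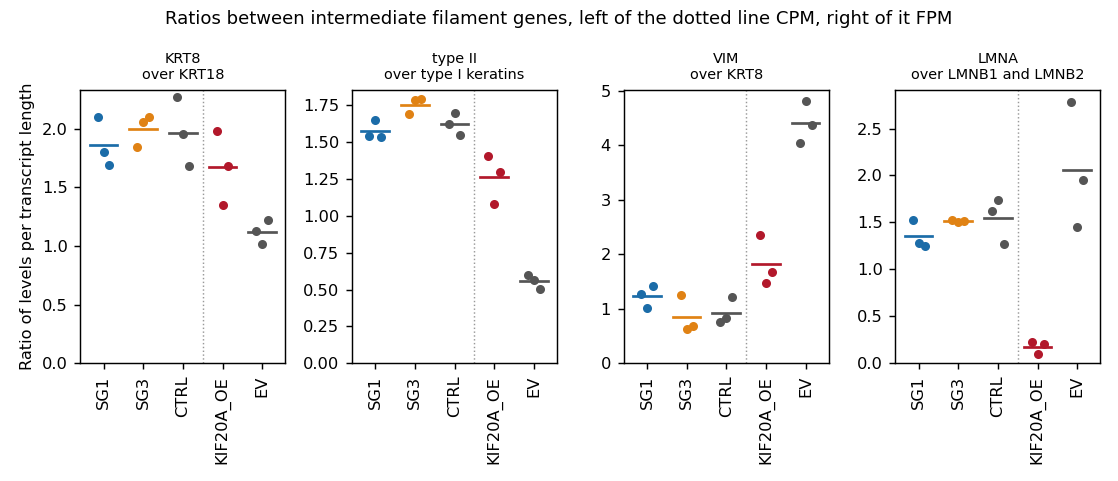
Ratios between members per transcript length in each library (points) with group means (lines), for depletion CPM left of the dotted line and overexpression FPM right of it. LMNA over the B-type lamins is 0.225 or less in KIF20A_OE and 1.45 or more in EV, while SG1, SG3 and CTRL stay between 1.25 and 1.74.

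EV and CTRL, both given as wild-type MDA-MB231, were scaled in separate tables and were not tested against each other. VIM over KRT8 per length was 4.41 ± 0.388 in EV and 0.931 ± 0.244 in CTRL (SD, n = 3 each). Type II over type I chains was 0.557 ± 0.0484 in EV and 1.62 ± 0.0746 in CTRL (SD, n = 3 each). With all exons joined VIM over KRT8 averaged 5.91 in EV and 1.25 in CTRL, and type II over type I chains 0.39 in EV and 1.26 in CTRL. The order of the groups held, while the level depended on the length used. The annotation release and counting rules are not given for either dataset. KRT19, KRT7, KRT80, VIM and LMNA were abundant in both.

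In the depletion dataset no member was called by edgeR's quasi-likelihood test with the low-count filter and all 9 libraries. Of 16786 genes tested, edgeR called 0% at an adjusted p under 0.05 in SG1 against CTRL, in SG3 against CTRL, in SG1 against SG3 and in the average of both depleted groups against CTRL. The SG1 and SG3 comparisons share the CTRL libraries. At an unadjusted p under 0.05, 2 of 18 members passed in SG1 against CTRL (4.59% of all genes), 0 in SG3 against CTRL (1.19% of all genes) and 3 in SG1 against SG3 (4.74% of all genes). DESeq2 called 0 members in SG1 against CTRL (0.0179% of all genes), 0 in SG3 against CTRL (0.0238% of all genes) and 1, KRT81, in SG1 against SG3 (0.0298% of all genes).

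In SG1 every tested keratin lay on the lower side of CTRL. All 11 log2 fold changes were negative, with a median of -0.30, whereas 50.3% of all genes were negative, with a median of 0.00; genes of a family are not independent of each other. Leaving out CTRL replicate 2 left 10 of 11 negative with a median of -0.20. Keratins took 0.189, 0.21 and 0.162% of counts in SG1 and 0.22, 0.267 and 0.21% in CTRL, and the groups did not overlap, although the highest SG1 library and the lowest CTRL library were nearly equal (exact p = 0.1). Groups did not overlap for 0 higher and 3 lower members (4.96% and 7.21% of all genes), and these were KRT81, KRT10 and KRT19. With the low-count filter edgeR called none of the 3 after adjustment over all genes; without it KRT81 and KRT10 were called, as given below.

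**Figure D4:**
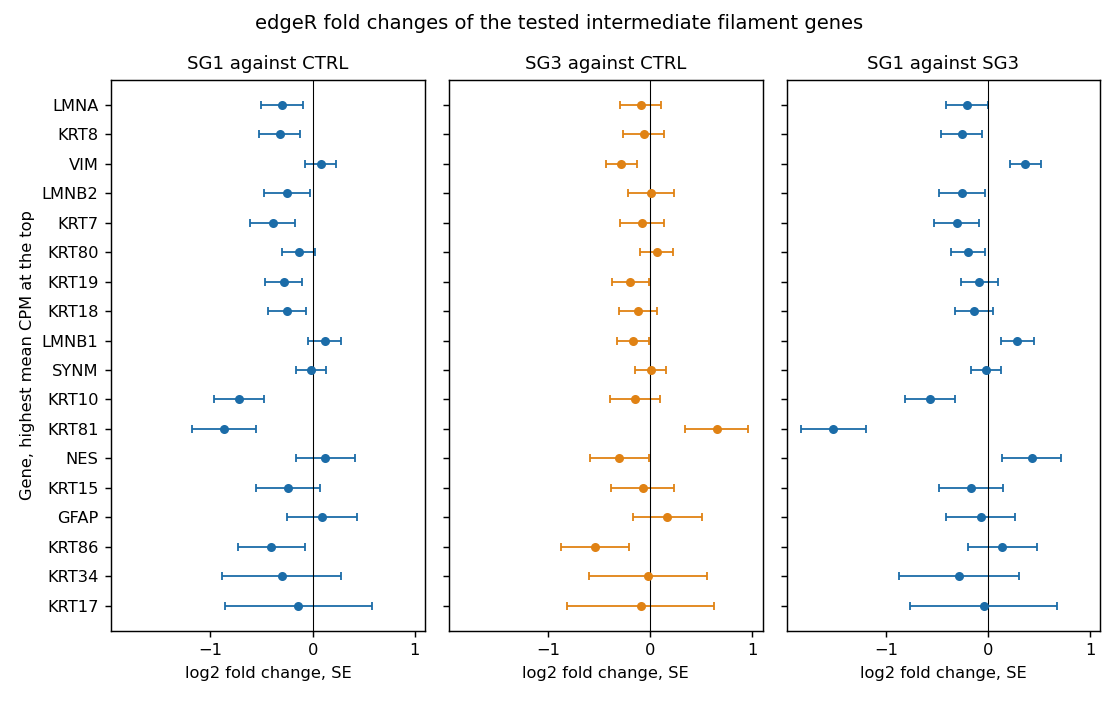
Log2 fold changes (points) with standard errors (bars) of the 18 members tested in the depletion dataset, for SG1 against CTRL, SG3 against CTRL and SG1 against SG3, ordered by mean CPM. In SG1 against CTRL all 11 keratins lie left of 0, and KRT81 lies left of 0 in SG1 against CTRL and right of 0 in SG3 against CTRL.

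Among the 18 tested members KRT81 had the largest log2 fold change between the depleted groups. It had 6.4, 6.84 and 6.66 CPM in SG1, 8.41, 28.6 and 19.9 CPM in SG3 and 10.2, 13.4 and 12.6 CPM in CTRL. SG1 lay below both other groups in every library, while SG3 spanned CTRL. The edgeR log2 fold change was -0.86 ± 0.31 (SE, adjusted p = 0.913) in SG1 against CTRL, 0.65 ± 0.31 (adjusted p = 1) in SG3 against CTRL and -1.51 ± 0.32 (adjusted p = 0.861) in SG1 against SG3. For SG1 against SG3, DESeq2 gave -1.53 with adjusted p = 0.00517, edgeR without the low-count filter gave adjusted p = 3.58e-09 (0.174% of all genes called lower), and edgeR without SG3 replicate 1 gave -1.90 with adjusted p = 0.00389 (0.029% of all genes). Over the 16 alternatives the adjusted p ran from 3.58e-09 to 1. KRT86, which shares 50-base windows with it, had 1.22, 1.58 and 0.958 CPM in SG1, 1.24, 0.83 and 1.35 CPM in SG3 and 1.32, 1.78 and 1.87 CPM in CTRL, with overlap between all groups.

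KRT10 had 18.7, 18.6 and 15.1 CPM in SG1, 14.8, 30.1 and 32.8 CPM in SG3 and 33.2, 29.2 and 23.8 CPM in CTRL. SG1 lay below CTRL in every library (log2 fold change -0.72 ± 0.24, SE, adjusted p = 0.913). Without the low-count filter edgeR called KRT10 and KRT81 lower in SG1 than in CTRL, with adjusted p of 0.0385 and 0.0213, when 0.209% of all genes were called lower. KRT19 had 334, 324 and 254 CPM in SG1, 246, 406 and 317 CPM in SG3 and 346, 423 and 342 CPM in CTRL (SG1 against CTRL: -0.28 ± 0.18, SE, adjusted p = 0.913).

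The other abundant keratins were not called, and their groups overlapped. edgeR's log2 fold changes for SG1 against CTRL were -0.32 ± 0.20 for KRT8 and -0.25 ± 0.19 for KRT18 (SE, adjusted p = 0.913 for both). KRT8 had 602, 702 and 476 CPM in SG1, 485, 868 and 774 CPM in SG3 and 740, 811 and 673 CPM in CTRL, and the highest SG1 library lay above the lowest CTRL library. KRT18 had 211, 287 and 208 CPM in SG1, 193, 310 and 271 CPM in SG3 and 240, 305 and 294 CPM in CTRL. KRT7 averaged 396 ± 74.6 CPM in SG1, 490 ± 134 CPM in SG3 and 520 ± 130.2 CPM in CTRL (SD, n = 3 each). KRT80 averaged 344 ± 34.1 CPM in SG1, 395 ± 76 CPM in SG3 and 379 ± 51.9 CPM in CTRL (SD, n = 3 each). KRT8 over KRT18 per length was 1.86 ± 0.213 in SG1, 2 ± 0.138 in SG3 and 1.97 ± 0.296 in CTRL (SD, n = 3 each), so this pair kept its proportion within the spread. Type II over type I chains per length was 1.54, 1.65 and 1.53 in SG1 and 1.69, 1.78 and 1.79 in SG3, without overlap (exact p = 0.1). CTRL overlapped both at 1.63, 1.7 and 1.55. The overlap of SG3 with CTRL depended on the length used. With all exons joined SG3 had 1.36, 1.41 and 1.41 and CTRL 1.25, 1.32 and 1.21, without overlap (exact p = 0.1). SG1, at 1.21, 1.3 and 1.24, then still overlapped CTRL.

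**Figure D5:**
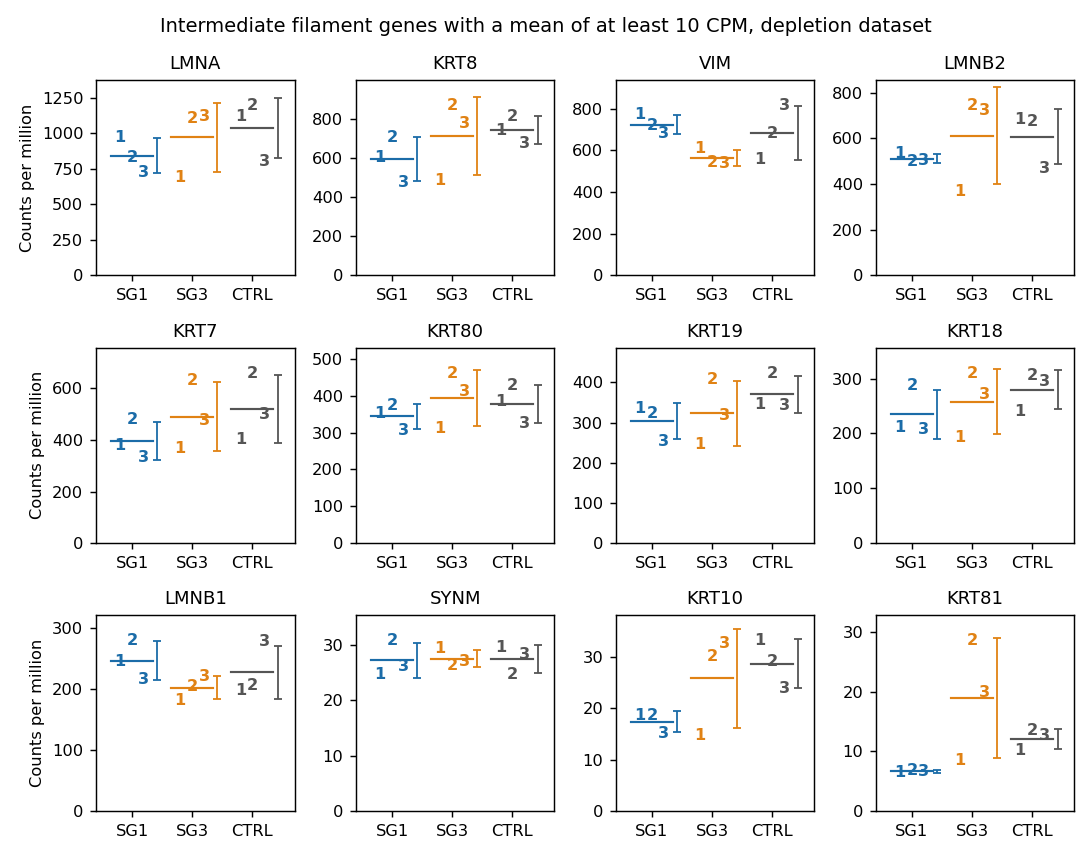
CPM of the 12 members with a mean of at least 10 CPM in each depletion library (numbers are replicates; lines are group means, bars the SD). KRT81 in SG1 lies below SG3 and CTRL in every library, VIM in SG1 lies above SG3, and SG3 replicate 1 is the lowest SG3 library for LMNA, KRT8, LMNB2, KRT7, KRT80, KRT19, KRT18, KRT10 and KRT81.

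Vimentin was the only tested member whose SG1 libraries all lay above the SG3 libraries. VIM had 770, 719.9 and 679 CPM in SG1, 608, 543 and 536 CPM in SG3 and 557, 680.3 and 816 CPM in CTRL. The log2 fold change of SG1 against SG3 was 0.36 ± 0.15 (SE, unadjusted p = 0.0309, adjusted p = 0.861 by edgeR), and CTRL spanned both groups. In SG1 against SG3 groups did not overlap for 1 higher member, VIM, and 1 lower, KRT81, while 6.26% and 4.55% of all genes did so. In SG3 against CTRL groups overlapped for every tested member, while 2.28% and 2.37% of all genes were higher or lower without overlap.

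Single libraries carried much of the spread. SG3 replicate 1 was the lowest of its group for LMNA, KRT8 and most other keratins and the highest for VIM, and CTRL replicate 3 was the lowest of its group for LMNA and LMNB2 and the highest for VIM. LMNA had 969, 833 and 727 CPM in SG1, 692, 1106 and 1120 CPM in SG3 and 1116, 1198 and 799 CPM in CTRL. LMNB2 had 535, 498 and 502 CPM in SG1, 366, 746 and 722 CPM in SG3 and 684, 673 and 468 CPM in CTRL. LMNB1 averaged 246 ± 31.9 CPM in SG1, 202 ± 19.4 CPM in SG3 and 227 ± 43.6 CPM in CTRL (SD, n = 3 each). In SG3 against CTRL 9 of 11 keratins were negative with all libraries, 6 of 12 without SG3 replicate 1 and 4 of 11 without CTRL replicate 2, and no direction is given for this group. SYNM stayed between 24.7 and 30.8 CPM in all 9 libraries, and NES between 3.96 and 11.7 CPM.

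Proteins that tie filaments to junctions and to other filaments were tested alongside. Of 18 such linkers, 16 were tested in the overexpression dataset, with 4 higher (CDH1, DSC3, EPPK1 and PNN) and 8 lower (DST, EVPL, JUP, MACF1, PKP2, PKP3, PLEC and PPL), against 46.2% of all genes higher and 23.4% lower. Their median was -0.81 against 0.37 over all genes, and TMM scaling gave 4 and 9, against 34.4% and 32.2% of all genes. CDH1, DSC3 and EPPK1 passed the filter for testing through KIF20A_OE alone and EVPL through EV alone, so these counts are partly fixed by it. PLEC, the plectin that cross-links vimentin and keratin filaments, had 187, 161 and 167 FPM in KIF20A_OE and 3525, 2361 and 3408 FPM in EV (adjusted p = 2.19e-07). Periplakin (PPL) and envoplakin (EVPL), partners in the cornified envelope, were both lower: PPL had 2.19, 2.03 and 2.84 FPM in KIF20A_OE and 67.2, 50.2 and 63.6 FPM in EV. EVPL had 0.188, 0.27 and 0.107 FPM in KIF20A_OE and 45.2, 60.6 and 59.9 FPM in EV. DSC3, a desmosomal cadherin, had 60.6, 27 and 81.8 FPM in KIF20A_OE and 0, 0.0967 and 0 FPM in EV (adjusted p = 3e-06). Desmoplakin (DSP), the main anchor of keratins at desmosomes, was not called, with 191, 206 and 222 FPM in KIF20A_OE and 277, 74.9 and 157 FPM in EV (adjusted p = 0.34). In the depletion dataset 0 of 16 tested linkers were called in either comparison with CTRL, with medians of 0.00 for SG1 and -0.01 for SG3.

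Genes of lamin processing, such as FNTA, and partners of the nuclear lamina were also mixed. Of 18 tested in the overexpression dataset, 4 were higher (EMD, FNTA, LBR and LEMD3) and 4 lower (LEMD2, SUN1, SYNE2 and SYNE3), against 46.2% and 23.4% of all genes. TMM scaling gave 3 and 9, against 34.4% and 32.2% of all genes. LBR, the lamin B receptor, had 279.8, 248 and 277 FPM in KIF20A_OE and 85.5, 118 and 82.3 FPM in EV (adjusted p = 5.08e-05). SUN1, which links the lamina to the cytoskeleton, had 139, 187 and 206 FPM in KIF20A_OE and 463, 340.1 and 349 FPM in EV (adjusted p = 0.000676). In the depletion dataset 0 of 18 were called in either comparison with CTRL.

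Antisense and overlapping genes bear on several members, since the sources used here give no strand setting for the counting. VIM-AS1, antisense to 12.4% of the VIM exons, had 3.82, 3.34 and 4.92 FPM in KIF20A_OE and 15.8, 14.2 and 9.88 FPM in EV, far below VIM itself. KRT7-AS had 0 in KIF20A_OE and 4.81, 5.66 and 4.53 FPM in EV, lower beside KRT7. KRT8 and KRT18 share 525 exonic bases on opposite strands, 7.63% of the KRT8 exons and 16.3% of the KRT18 exons. For NEFM 38.9% of exonic bases, and for NEFL 11.3%, lie under another annotated gene. The share was 25.9% for SYNM and 18.4% for GFAP, both on the opposite strand, and 34.5% for KRT222 on the same strand. Keratin pseudogenes summed to 7.28 to 8.7 FPM in KIF20A_OE and 5.17 to 6.11 FPM in EV, with none of 3 tested called (1, KRT8P3, was called lower under TMM scaling), and to 10.2 to 12.9 CPM in SG1 and 12.3 to 13.9 CPM in CTRL.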

How the data were processed

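For the depletion dataset the authors deposited raw counts, one whole number per gene and library. For the overexpression dataset the labels name FPKM, yet the deposited columns are CPM-like: each sums to 1000000, and 100% of values are whole multiples of 1 fragment within 0.001 fragments. They are read as fragments per 1000000 fragments (FPM), which carry no gene length, and the planned log2 test was applied to them. The submitters' processing notes list hg38 with STAR 2.7.3a, Trim Galore 0.6.4, Subread 1.6.3, featureCounts and limma 3.50.3. The sources used here give no annotation release, strand setting or rule for shared reads. Rows without a gene name numbered 0. Counts were mostly even, so halved counts were an alternative.

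Counts were tested with edgeR 4.0.16 (R 4.3.3; quasi-likelihood, TMM, default filter) in a single fit of 9 libraries, and FPM with limma 3.58.1 (trend, robust) on log2(FPM + 1) for genes with a mean of at least 1. Benjamini-Hochberg adjustment covered all genes kept, with a threshold of 0.05. CPM are TMM-scaled. Alternatives were DESeq2 1.42.0, limma-voom, other scalings, filters and pseudocounts, edgeR on recovered fragments, a replicate block and leaving out each library. On recovered fragments edgeR called 5673 genes higher and 5216 lower of 17078, with 6 members higher and 16 lower of 25 tested. Shares and ratios were compared by exact two-sided permutation over libraries, and ratios use the length of the GENCODE 29 principal transcript on GRCh38; the length of all exons joined was an alternative added after seeing the data. Sequence windows of 50 bases were searched in all GENCODE 29 transcripts on the sense strand. Promoter sequences are from RefSeq, where 42 of 68 members matched. Fits were also run on simulated data with a constant spread and far fewer changed genes than were called in KIF20A_OE against EV. The outcome is not given here and bears on no result.

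Named members were those with a mean of at least 10 CPM or FPM and those called in any comparison, plus close paralogs. The members and lists were chosen with earlier results of these data known.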

Additional observations from a re-analysis of the deposited data

How the results depend on the processing

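KRT8, KRT18, VIM, NES, SYNM and LMNA kept their direction and call in KIF20A_OE against EV under the alternatives in which they were tested. So did KRT7, KRT15, KRT19, KRT80, KRT81, KRT86, KRT38, KRT222, GFAP, NEFL, NEFM and INA, which passed the filter for testing through their higher group alone. The direction of these genes was therefore fixed by that filter, and its stability is not a result. In the depletion dataset depth does not limit the abundant members; the spread between 3 libraries does, and neither a loss nor a gain of the size of that spread can be told from none. Members at or near 0 are limited by depth. The causes of the changes below were not tested.

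Calls over all genes in the depletion dataset were 0 in each direction with edgeR. Without the low-count filter they were 26 higher and 65 lower for SG1 against CTRL, 5 and 3 for SG3 against CTRL, 23 and 54 for SG1 against SG3, and 11 and 9 for both depleted groups averaged against CTRL. DESeq2 gave 3 higher for SG1 against CTRL, 3 and 1 for SG3 against CTRL, 2 and 3 for SG1 against SG3, and 4 and 1 for that average. Leaving out a library gave 0 to 1 lower for SG1 against CTRL (1 without SG1 replicate 2), 0 to 5 lower for SG1 against SG3 (5 without SG3 replicate 1) and 0 to 2 lower for that average (2 without SG1 replicate 2).

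Samples shared only a replicate number: correlations of same-numbered deviations ran from -0.26 to 0.504 in the depletion dataset and from 0.0142 to 0.0577 in the overexpression dataset. Each overexpression library correlated best with its own number, as a hint from the data and not the design, and not every depletion library did. With the replicate number as a block, edgeR called 0 genes in the depletion dataset and limma called 6984 higher and 3546 lower in KIF20A_OE against EV.

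Fold changes near 0 changed sign. Without single libraries, the log2 fold change of SG1 against CTRL ran from -0.18 to 0.27 for GFAP, -0.576 to 0.0691 for KRT15, -1.73 to 0.31 for KRT17, -0.0686 to 0.351 for NES, -0.109 to 0.0298 for SYNM and -0.0654 to 0.205 for VIM. That of SG1 against SG3 ran from -0.38 to 0.32 for GFAP, -1.66 to 0.41 for KRT17, -0.336 to 0.0196 for KRT18, -0.28 to 0.11 for KRT19, -0.0856 to 0.3005 for KRT86 and -0.139 to 0.0333 for SYNM. For SG3 against CTRL the range was -0.23 to 0.48 for GFAP, -0.36 to 0.15 for KRT10, -0.40 to 0.25 for KRT15, -0.50 to 0.16 for KRT17, -0.272 to 0.0796 for KRT18, -0.31 to 0.16 for KRT7, -0.24 to 0.17 for KRT8, -0.0671 to 0.23 for KRT80, -0.26 to 0.12 for LMNA, -0.16 to 0.29 for LMNB2, -0.48 to 0.00494 for NES and -0.033 to 0.0535 for SYNM. The share of the family in SG3 minus CTRL ran from -0.0583 to 0.0316 percentage points. SYNM in SG1 against CTRL was 0.00181 with only the libraries compared. In SG3 against CTRL limma-voom gave 0.0318 for KRT15 and -0.0422 for LMNB2, and the replicate block gave 0.0871 for KRT17 and -0.015 for LMNB2.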
